A study of Polistes fuscatus with 17 samples.

Results

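The comparison set the brains of workers that had lived on nests of another species, P. metricus (allospecific nests), against those of workers that had lived on nests of their own species, P. fuscatus (conspecific nests). Its 8 workers, 4 per nest group, were taken by library title from the 17 Polistes fuscatus wasps of the series. The allospecific group consisted of wasps FW11, FW24, FW32 and FW44, and the conspecific group of FW10, FW25, FW28 and FW47. All were adult females from Ann Arbor, each kept on a nest that was not its natal one for a week or longer and then trained on images of P. fuscatus faces in a negatively reinforced T-maze. Both groups therefore share the nest swap and the face training and differ by label in the species of the host nest. Each wasp received 40 trials and was frozen 30 minutes after the last one, and the RNA of its brain was sequenced as 1 library. Foundresses, 5 trained to faces and 4 trained to patterns, were used only to place the level of a transcript. Workers were collected in 2 months: FW11 and FW24 in July and FW32 and FW44 in August, against FW10, FW25 and FW28 in July and FW47 in August. The natal nest and the age in days of each worker are not given in the labels, so that relatedness within a group, age and host nest cannot be told apart.

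P. fuscatus is a paper wasp in which colour patterns of the face vary between individuals and are used to recognise them. Its close relative P. metricus is not known to recognise individuals by face. Workers are daughters that stay on the nest, and the early social surroundings of an adult wasp are one candidate for what shapes its later face learning, which is the question a swap to a P. metricus nest addresses.

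Transcripts were measured as counts of reads per contig, a stretch of assembled RNA sequence that can be a whole transcript, a part of one or a variant of it. None of the contig identifiers occurs among the 13634 entries of the P. fuscatus gene table used here, so the contigs carry no gene names, no sequences were at hand to print, and markers of brain and other tissues could not be looked up. Total counts were 18.7, 20.2, 16.5 and 19.7 M in FW11, FW24, FW32 and FW44 and 19.9, 16.6, 19.9 and 18.02 M in FW10, FW25, FW28 and FW47. The mean was 18.8 ± 1.65 M in allospecific and 18.6 ± 1.60 M in conspecific workers (SD, n = 4 each), a difference of 0.133 M that lay within the spread of each group (exact permutation test, two-sided, p = 0.857). Levels are given as CPM, the counts of a contig scaled to a common library size, on the scale of the fit.

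Over all tested contigs, brains of different nest groups were about as alike as brains of the same group. The log2 CPM profiles of 2 allospecific workers correlated at 0.973 on average (0.966 to 0.978 over 6 pairs), those of 2 conspecific workers at 0.968 (0.962 to 0.974 over 6 pairs) and those of workers of different groups at 0.969 (0.956 to 0.977 over 16 pairs), across contigs, which are not independent. The mean distance, 1 minus the correlation, was 0.0314 between groups and 0.0295 within them. That excess of 0.00190 was not larger than the spread between wasps (exact permutation test over 70 assignments of the 8 workers, one-sided, p = 0.171), and among the 5 July workers alone it was -0.000532.

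On the principal components of log2 CPM, workers of both groups were mixed. The first component held 25.03% of the variance and the second 18.6%. The 4 allospecific workers lay at -49.9, -14.2, -39.5 and 28.2 on the first component (FW11, FW24, FW32, FW44), and the conspecific workers at -11.4, -25.9, 67.1 and 45.5 (FW10, FW25, FW28, FW47). The groups overlapped there and on the second component (exact permutation tests, two-sided, p = 0.200 and 0.314, adjusted p = 0.600 and 0.629 over the 6 library values tested). FW28 lay farthest out on both components, with a median correlation to the other workers of 0.964, against 0.967 to 0.974 in the other 7. The 3 August workers lay at -29.4, -45.8 and -30.1 on the second component (FW32, FW44, FW47), below every July worker, of which FW24 was the lowest at -20.0 and FW28 the highest at 54.7. Because 2 of 4 allospecific but 1 of 4 conspecific workers came from August, month moves with nest group. Values within months and with month as a covariate are given for the named contigs.

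**Figure D1:**
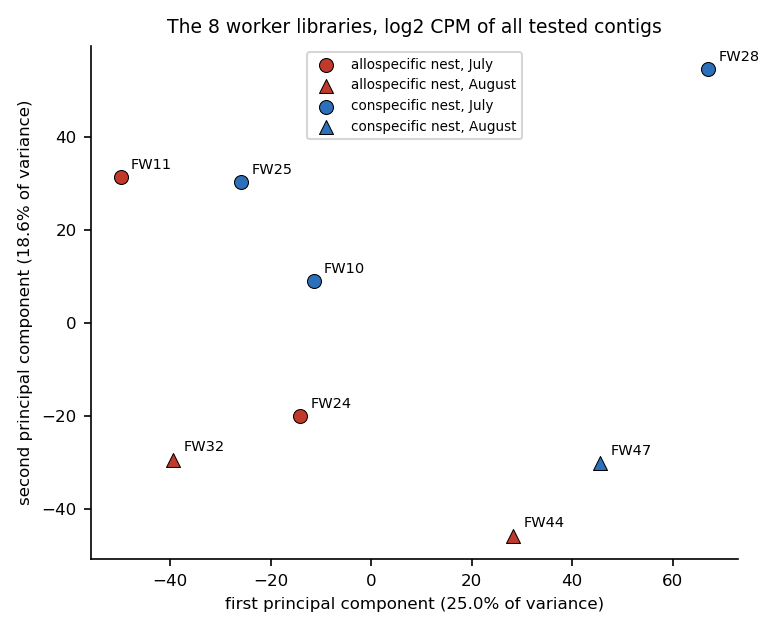
Positions of the 8 worker libraries on the first (horizontal) and second (vertical) principal component of log2 CPM over all tested contigs; red is the allospecific and blue the conspecific group, circles are July and triangles August workers. The colours are mixed, FW28 lies apart at the upper right and the August workers lie at -29.4 or lower on the vertical axis.

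The remaining library values did not separate the groups either. At an equal depth of 16475310 counts, 97135 ± 1438 contigs were detected in allospecific and 98831 ± 2125 in conspecific workers (SD, n = 4 each, exact permutation test, two-sided, p = 0.200, adjusted p = 0.600). The 10 most abundant contigs held 6.32 ± 0.509% of counts in allospecific and 6.01 ± 0.975% in conspecific workers (exact permutation test, two-sided, p = 0.571, adjusted p = 0.686). Each worker's median absolute deviation from the median of the others was 0.182 ± 0.0277 log2 CPM in the allospecific and 0.195 ± 0.0314 in the conspecific group (exact permutation test, two-sided, p = 0.543, adjusted p = 0.686). With 4 wasps per group the smallest p such a test can give is 0.0286.

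A small set of contigs did differ. Of 57944 tested contigs, 28 passed a false discovery rate (FDR) of 0.05 (edgeR quasi-likelihood F-test, Benjamini-Hochberg), 0.0483% of those tested. Of these, 20 were higher in allospecific workers (0.0345% of those tested) and 8 were lower (0.0138%). In all 28 the values of the nest groups did not overlap, which held for 3.05% of all tested contigs (1.59% higher and 1.46% lower in allospecific workers). An unadjusted p under 0.05 was found in 3097 contigs, 5.34%, of which 1470 (2.54%) were higher and 1627 (2.81%) lower in allospecific workers. The contigs past the FDR that were higher had a median log2 fold change of 2.001, those lower had one of -1.62, and all tested contigs had one of -0.00348.

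The differences in these 28 contigs were mostly large. With 4 wasps per group, passing the FDR favours large differences and groups that do not overlap. The sizes thus follow in part from the choice. A change over 2-fold was fitted in 13 of the 20 higher and in all 8 lower contigs, and over 4-fold in 10 higher and 3 lower ones. Over all tested contigs a fitted change over 4-fold was found in 0.133% (0.05% higher and 0.0828% lower in allospecific workers). Leaving out 2 contigs with 3 or fewer counts in a whole group, the log2 fold changes ran from 0.70 to 4.94 on the higher side and from -4.52 to -1.01 on the lower side. The 4.94 belongs to PfusTSAr1.0-029260, chosen after its values were seen, which had 26, 46, 33 and 32 reads in FW11, FW24, FW32 and FW44, against 0, 0, 4 and 0 in FW10, FW25, FW28 and FW47. Its size thus rests on 4 reads of FW28, without which the conspecific group is at 0. The 7 contigs that differed by under 2-fold were all higher in allospecific workers. Among them are the 4 contigs of a run of nearby identifiers, described below, that may hold fewer separate transcripts.

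**Figure D2:**
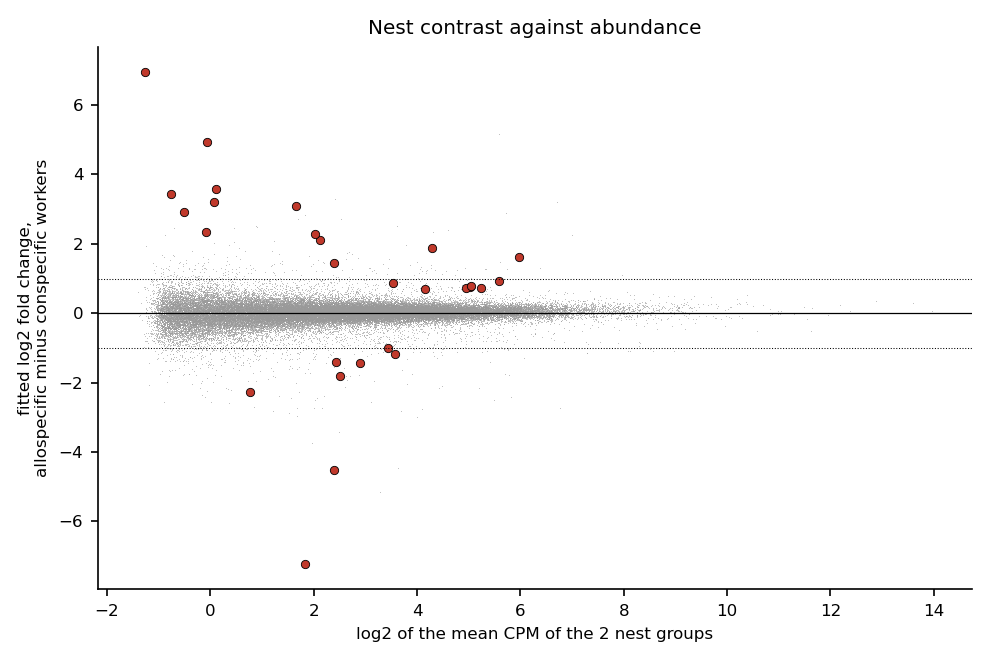
Fitted log2 fold change of allospecific minus conspecific workers (vertical) against the log2 of mean CPM (horizontal) for the 57944 tested contigs; red points are the 28 past the FDR and dotted lines mark 2-fold. The scatter narrows with abundance, most red points lie above 0, and the 2 outermost ones rest on 3 or fewer counts in a group, so that their fitted values are not measures of size.

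PfusTSAr1.0-048649 was the most abundant of the contigs named by rule, and it was higher in allospecific workers. Its level was 93.7, 96.3, 99.0 and 91.6 CPM in FW11, FW24, FW32 and FW44, against 26.6, 26.6, 41.2 and 28.1 CPM in FW10, FW25, FW28 and FW47. The allospecific workers were nearly equal to each other, and the nearest conspecific worker, FW28, stood at less than any of them. The group means were 95.1 ± 3.23 CPM in allospecific and 30.7 ± 7.09 CPM in conspecific workers (SD, n = 4 each), a 3.10-fold difference (log2 fold change 1.63, SE 0.14, 95% interval 1.32 to 1.94, edgeR adjusted p = 0.00203). Foundresses were below all allospecific workers. Those trained to faces averaged 24.3 ± 4.52 CPM (SD, n = 5) and those trained to patterns 29.3 ± 9.94 CPM (SD, n = 4), with the highest, F17, at 43.0 CPM. The contig with the next higher identifier stood at 97.2 CPM in allospecific and 101.2 CPM in conspecific workers, a log2 fold change of -0.06 (unadjusted p = 0.562, edgeR adjusted p = 0.981).

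PfusTSAr1.0-045108 was likewise higher in allospecific workers, at a lower level. It had 6.15, 7.03, 6.79 and 8.32 CPM in FW11, FW24, FW32 and FW44, against 1.75, 1.44, 1.21 and 2.13 CPM in FW10, FW25, FW28 and FW47. The 2 ranges lay far apart, with counts of 111 to 166 reads in the allospecific and 23 to 40 in the conspecific libraries. The difference was 4.32-fold (log2 fold change 2.11, SE 0.19, 95% interval 1.69 to 2.53, edgeR adjusted p = 0.00203). Face-trained foundresses averaged 1.42 ± 1.17 CPM (SD, n = 5) and pattern-trained ones 2.26 ± 1.88 CPM (SD, n = 4), and all 9 ran from 0.262 to 4.65 CPM, all below the allospecific workers. Here the contig with the next higher identifier leaned the same way, at 6.30 CPM in allospecific and 2.19 CPM in conspecific workers (log2 fold change 1.51, unadjusted p = 0.000108), but it missed the FDR (edgeR adjusted p = 0.123).

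PfusTSAr1.0-102313 had the smallest p of all contigs and was lower in allospecific workers. It had 0.665, 0.357, 0.489 and 0.251 CPM in FW11, FW24, FW32 and FW44, against 15.7, 10.6, 6.40 and 7.78 CPM in FW10, FW25, FW28 and FW47. In reads this was 5 to 12 per allospecific library against 122 to 315 per conspecific one. The means were 0.440 ± 0.179 CPM in allospecific and 10.1 ± 4.13 CPM in conspecific workers (SD, n = 4 each), 23.0-fold lower in allospecific workers (log2 fold change -4.52, SE 0.36, 95% interval -5.30 to -3.75, edgeR adjusted p = 0.00164). Face-trained foundresses averaged 5.17 ± 3.44 CPM (SD, n = 5) and pattern-trained ones 4.33 ± 1.75 CPM (SD, n = 4). In 8 of the 9 foundresses the contig was above every allospecific worker, and in F25 it was below them, at 0.151 CPM.

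PfusTSAr1.0-073323 was lower in allospecific workers by a smaller factor. It had 4.71, 3.52, 4.34 and 3.51 CPM in FW11, FW24, FW32 and FW44, against 12.1, 13.3, 7.98 and 9.97 CPM in FW10, FW25, FW28 and FW47. The difference was 2.70-fold (log2 fold change -1.43, SE 0.18, 95% interval -1.82 to -1.04, edgeR adjusted p = 0.0152). The level was 8.13 ± 3.06 CPM (SD, n = 5) in face-trained and 14.6 ± 11.2 CPM (SD, n = 4) in pattern-trained foundresses, from 3.31 CPM in F25 to 31.2 CPM in F17. This contig missed the FDR without FW24, FW32 or FW44, with edgeR adjusted p of 0.0932, 0.0749 and 0.0761.

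**Figure D3:**
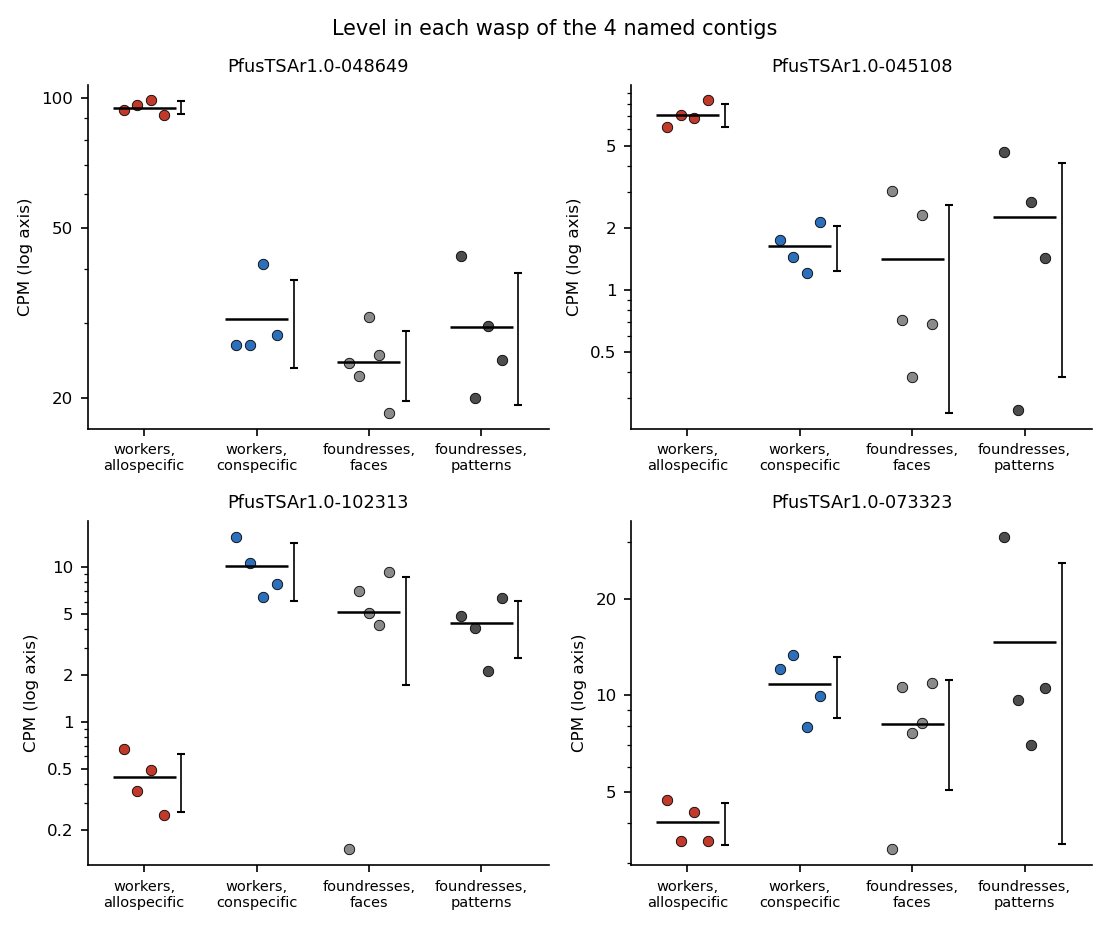
CPM (log axis) of the 4 contigs named by rule in each of the 17 wasps; points are wasps, horizontal lines group means and bars 1 SD. Allospecific workers lie apart from conspecific workers in each panel, above them in the upper row and below them in the lower row, and most foundresses lie near the conspecific level.

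The sizes of these 4 differences were similar within July and within August. These are the same workers by which the contigs were chosen. As their groups do not overlap, the direction could not change within a month, so the months are no separate test. In log2 CPM, July workers of the allospecific and conspecific groups differed by 1.62, 2.09, -4.07 and -1.39 in the order of the contigs above, and August workers by 1.75, 1.76, -4.05 and -1.33. With month as a covariate their log2 fold changes were 1.65, 2.04, -4.41 and -1.40 (edgeR adjusted p = 0.00389, 0.00389, 0.00239 and 0.0321). In that fit 23 contigs passed the FDR, 16 higher and 7 lower in allospecific workers, of which 20 were among the 28. With the 5 July workers alone 1 contig passed in edgeR, at 2295 contigs with an unadjusted p under 0.05, and the 4 named contigs missed the FDR with adjusted p of 0.0559 to 0.493. August had 1 conspecific worker and was not tested alone.

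The count of contigs past the FDR depended on single wasps. It was 10 without FW24, 7 without FW32 and 14 without FW44, of which 9, 7 and 13 were among the 28. Of these, 1, 1 and 2 were lower in allospecific workers, against 8 with all wasps. The count was 61 without FW11, with 25 of the 28 among them. Without FW11 28 were higher and 33 lower in allospecific workers, so that the lower ones outnumbered the higher ones, against 20 and 8 with all wasps. Leaving out the conspecific FW47 gave 18, of which 14 were among the 28. Without FW10, FW25 or FW28 it was 36, 31 and 32, of which 19, 21 and 21 were among the 28. The lower ones numbered 14, 14 and 6 in these fits and 7 without FW47.

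Foundresses, which did not enter the fit, were mostly nearer to conspecific than to allospecific workers at the 28 contigs. The mean log2 CPM of the 9 foundresses was nearer to the conspecific than to the allospecific mean in 26 of 28, in 19 of the 20 higher and 7 of the 8 lower contigs, where it was so in 52.7% of all tested contigs. Among the 3069 contigs with an unadjusted p under 0.05 that missed the FDR the share was 62.1%. The count was 26 with foundresses trained to faces only, with those trained to patterns only, and without F17, the foundress with the highest level of 048649 and 073323. Taken wasp by wasp, each foundress was nearer the conspecific mean in 22 to 25 of the 28 contigs. The mean of all foundresses lay below both worker means in 13 of the 28 contigs and above both in 1, so that nearer does not mean between. In 16 contigs all 9 foundresses lay beyond every allospecific worker on the conspecific side, 14 of them below and 2 above. In 1 contig all 9 lay beyond every conspecific worker on the allospecific side. Over all tested contigs these patterns were found in 3.84% and 1.34%. Total counts were 17.3 ± 2.21 M in face-trained (SD, n = 5) and 13.4 ± 3.84 M in pattern-trained foundresses (SD, n = 4), with 7.69 M in F3. At contigs of low level the foundress values thus rest on few reads. Caste, season and the nest swap differ between foundresses and workers, so that these levels place the contigs and test nothing.

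**Figure D4:**
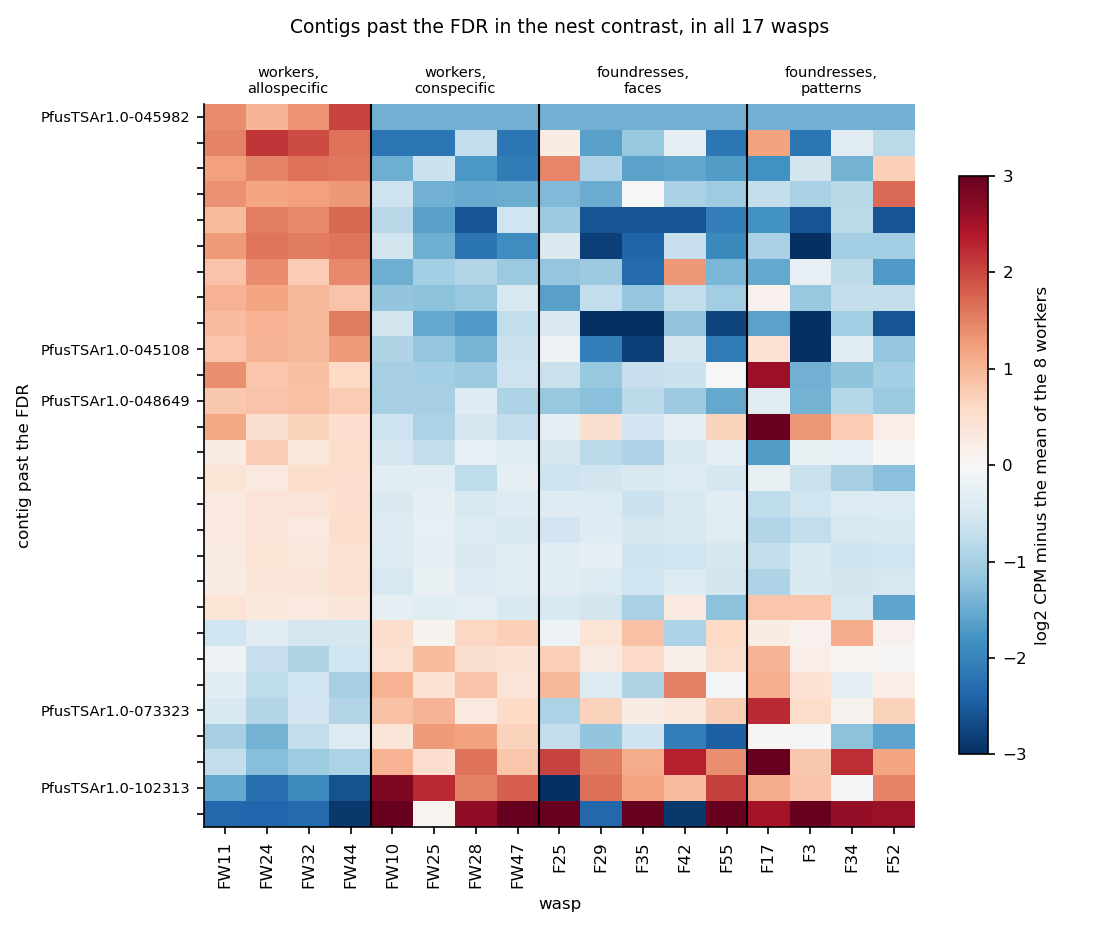
Levels of the 28 contigs past the FDR (rows, ordered by fold change, those named by rule labelled) in the 17 wasps (columns), as log2 CPM minus the mean of the 8 workers; red is higher and blue lower. The rows change colour between the allospecific and conspecific workers, by which they were chosen, and most foundress columns show the colour of the conspecific workers.

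The contigs past the FDR were spread over classes of mean level that each spanned a 4-fold range above 2 CPM. They were 8 of 15562 contigs under 2 CPM (0.0514%), 9 of 18931 from 2 to 8 CPM (0.0475%), 6 of 17237 from 8 to 32 CPM (0.0348%) and 5 of 5350 in the next class, from 32 CPM (0.0935%). All 5 in that class were higher in allospecific workers. Among them, PfusTSAr1.0-094469, PfusTSAr1.0-094474 and PfusTSAr1.0-094476 belong to a run of nearby identifiers, described below, that may hold fewer separate transcripts. Of the 864 most abundant contigs, above that class, 0 passed in edgeR, with 52 at an unadjusted p under 0.05, while DESeq2 called 4 of them and limma-voom 0.

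The 8 libraries bounded most differences. The 95% interval of the log2 fold change lay within 2-fold of no difference in 50139 contigs, 86.5% of those tested. The share was 61.8% under 2 CPM, 93.3% from 2 to 8 CPM, 97.6% from 8 to 32 CPM, 97.6% in the class from 32 CPM and 95.5% in the most abundant class. The median distance from the estimate to either end of the interval was 0.66 log2 under 2 CPM, 0.25 log2 in the class from 32 CPM and 0.27 log2 in the most abundant class. Smaller differences, and those of contigs under 2 CPM, were thus not detectable for many contigs at this depth and number of wasps.

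Contigs found in 1 nest group and at 0 counts in the other were few. With at least 5 counts in each of 4 libraries and 0 in the other 4, there was 1 contig on each side, 0.000634% of the 157691 contigs each. PfusTSAr1.0-045982 had 14, 11, 12 and 25 reads in FW11, FW24, FW32 and FW44 and 0 in every conspecific worker and every foundress. At 0.831 ± 0.296 CPM (SD, n = 4) it was at least 20.6-fold higher in allospecific workers than the 3 counts over the conspecific group that a count of 0 allows, with its own mean taken as measured (edgeR adjusted p = 0.0327). The exact 95% counting interval of the ratio of summed reads, which includes the error of the 62 reads, starts at 16.4-fold. PfusTSAr1.0-049118 had 0 reads in every allospecific worker, against 7, 7, 5 and 8 in FW10, FW25, FW28 and FW47, and 1 to 17 reads in each of the 9 foundresses. At 0.365 ± 0.0765 CPM in conspecific workers it was at least 8.99-fold lower in allospecific workers by the same floor, and at least 6.78-fold lower by the exact counting interval of its 27 reads. It was too low to be tested.

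Identifiers next to those of the 28 contigs often leaned the opposite way, a pattern looked at after the values were seen. The 28 fell into 25 runs, counting identifiers up to 10 apart as 1 run, and only 1 run held more than 1 contig. It held 4 contigs within 8 consecutive identifiers, all higher in allospecific workers, at 36.1 to 50.2 CPM against 22.0 to 31.2 CPM in conspecific workers, with log2 fold changes of 0.72 to 0.80. Foundresses stood at 17.0 to 28.6 CPM in these 4 contigs. Whether reads are shared between contigs of such a run cannot be read from the counts, so the run may hold fewer than 4 separate transcripts.

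Of 35 tested contigs with an identifier directly below or above one of the 28 and not themselves past the FDR, 10 (28.6%) differed in the same direction as their neighbour and 25 in the opposite one. Over all 42340 pairs of tested contigs with adjacent identifiers, 60.8% shared their direction. These include PfusTSAr1.0-094469 and PfusTSAr1.0-094470, both past the FDR, a pair that the 35 leave out. In 11 of the 35 pairs (31.4%) the neighbour had an unadjusted p under 0.05, against 5.34% of all tested contigs. In 9 of these 11 pairs it leaned the opposite way, where 73 of all 448 adjacent pairs with both unadjusted p under 0.05 (16.3%) did. None of these neighbours passed the FDR. In 6 of those 9 pairs the summed CPM of both contigs differed by less than 1.5-fold between the nest groups. A sum of contigs chosen for opposite directions is drawn towards no difference. The sums lay within the same bound in 61 of the 64 other opposite pairs with both unadjusted p under 0.05. That share was 95.3%, against 66.7% in these 9. The 64 pairs hold no contig past the FDR, so the shares are not like for like and do not show whether sums cancelled more often. The difference between the shares was not tested.

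The pair around PfusTSAr1.0-044007, chosen after its values were seen, shows the pattern. PfusTSAr1.0-044007 had 9.75, 6.68, 5.81 and 7.17 CPM in FW11, FW24, FW32 and FW44, against 14.9, 21.3, 15.3 and 14.8 CPM in FW10, FW25, FW28 and FW47, with means of 7.35 CPM in allospecific and 16.6 CPM in conspecific workers (log2 fold change -1.17, SE 0.17, edgeR adjusted p = 0.0457). The contig with the next higher identifier stood at 13.1, 8.36, 10.6 and 8.52 CPM in FW11, FW24, FW32 and FW44, against 1.70, 2.88, 6.19 and 1.97 CPM in FW10, FW25, FW28 and FW47 (log2 fold change 1.67, unadjusted p = 0.000321, edgeR adjusted p = 0.216). The sum of the 2 was 17.5 CPM in allospecific and 19.8 CPM in conspecific workers. What adjacent identifiers share (a gene, a transcript, an allele or nothing) is not given in the files, and its part in the pattern was not tested.

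**Figure D5:**
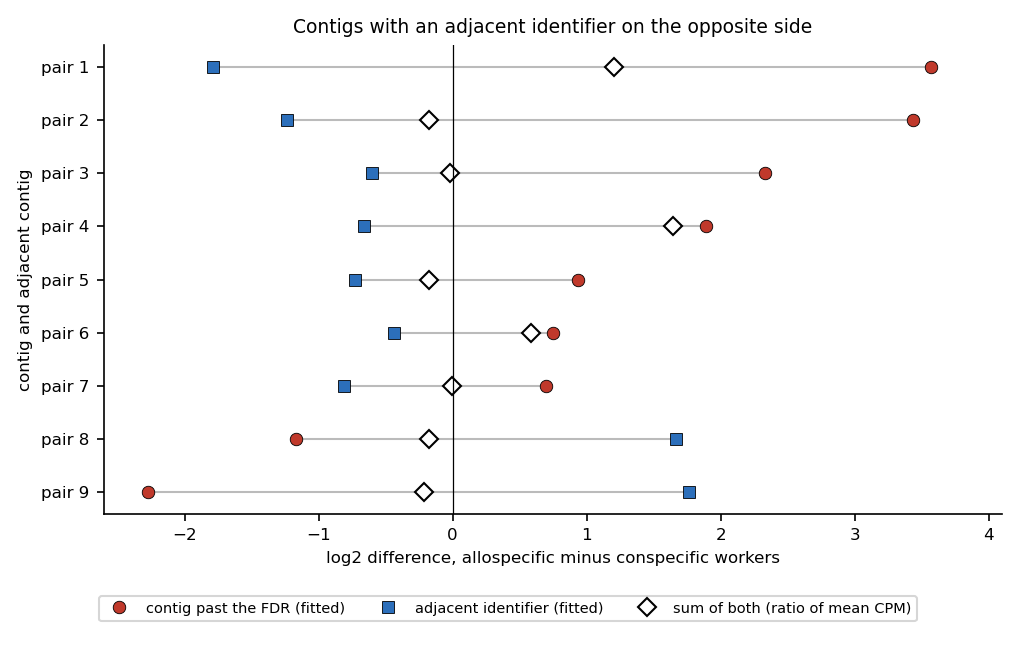
Log2 difference of allospecific minus conspecific workers for the 9 pairs in which a contig past the FDR (circle) has an adjacent identifier (square) on the opposite side at an unadjusted p under 0.05; the open diamond is the log2 ratio of the summed mean CPM. In 6 pairs the diamond lies within 1.5-fold of no difference, and in the other 3 it lies on the side of the circle.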

How the data were processed

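Each library held the brain RNA of 1 wasp, from 1 µg of total RNA. What the authors deposited are raw read counts of 157691 contigs: the values are whole numbers and library sums differ. Per the submitters' processing notes the tools were Trimmomatic 0.32, Bowtie2 and eXpress; the sources used here do not give their roles, the assembly or how reads matching several contigs were counted. From these counts, edgeR 4.0.16 in R 4.3.3 was fitted to the 8 worker libraries only. Its expression filter by group kept 57944 contigs holding 99.3% of worker counts, libraries were scaled by TMM (factors 0.964 to 1.05), and allospecific minus conspecific was tested two-sided. The biological coefficient of variation was 0.177. The SE is the log2 fold change over the square root of F. A prior count of 2 went into log2 CPM, and foundresses were placed on the workers' scale by TMM. Intervals of the fit for single contigs cover the spread between these wasps and counting error only. Count bounds and counting intervals cover counting error only, not the spread between wasps. No worker pair was as close as sampling noise (lowest chi-square per degree of freedom 6.69).

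Named contigs are, in each direction, the 2 of smallest p that passed the FDR and whose groups did not overlap, and the contigs at 0 in a nest group. The comparison, the abundance classes and these rules were chosen with earlier results of these data known. The fit was tested on simulated data. DESeq2 1.42.0 and limma 3.58.1 served as alternatives.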

Additional observations from a re-analysis of the deposited data

Results flagged for a closer look

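Dixon's test was applied to 24 groups of 4 values and 1 contained an outlying wasp, where chance gives at most about 1.2. PfusTSAr1.0-045982 in conspecific and PfusTSAr1.0-049118 in allospecific workers were at 0 throughout and could not be flagged. The level of PfusTSAr1.0-048649 was 41.2 CPM in FW28, against 26.6 to 28.1 CPM in the other conspecific workers. Without FW28 the log2 fold change of this contig was 1.81 (SE 0.10, edgeR adjusted p = 8.72e-05), against 1.63 with it. FW28 was also the library farthest out on the first principal component, and its part in the level of this contig was not tested.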

How the results depend on the processing

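No paired analysis was possible because the nest groups hold different animals that no label matches up. The count of 28 contigs past the FDR became 160 (92 higher, 68 lower in allospecific workers) with DESeq2 and 1474 (654 higher, 820 lower, so that lower ones outnumbered higher ones) with no filter on low counts, each with all 28 among them, 6 at an FDR of 0.01 and 1 with July workers only, which has fewer wasps. Leaving out each worker in turn gave 7 to 61, with more higher than lower ones except without FW11 (28 higher, 33 lower). It was 19 to 41 with limma-voom, library quality weights, other scalings, a filter of 1 CPM in 4 libraries, month as a covariate, robust dispersions and an FDR of 0.1. With limma-voom 17 were higher and 2 lower in allospecific workers, and with library quality weights 24 and 8. For the larger counts the cause was not tested. The 4 named contigs kept their direction in all 72 alternative values and passed the FDR in 65. They were chosen by smallest p and by groups that do not overlap. Every alternative reused these libraries or a part of them, so the kept direction largely follows from the choice. The distance between groups turned to -0.000532 with July workers only and was 0.000312 to 0.00363 without each worker. In the one-sided exact permutation test p was 0.600 with July workers only, 0.0857 without FW10 and 0.0571 without FW25. It was 0.143 to 0.371 without each of the others, so that this result depends on single conspecific workers. Contigs at 0 in a nest group were 96 (counted in allospecific) and 147 (counted in conspecific workers) at a minimum count of 1, and 1 and 0 at 10. The placement of foundresses without F17 or by training, and the look at adjacent identifiers, were chosen after the data were seen. Low counts limit the contigs under 2 CPM, and 4 wasps per group limit all.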

Other observations

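Most contigs with a large fitted change between the nest groups were not past the FDR. A log2 fold change over 2 in size, that is over 4-fold, was fitted in 77 contigs, 0.133% of those tested, 29 higher and 48 lower in allospecific workers. Of these, 13 were past the FDR and 36 had groups that did not overlap. In 24 of the 77, 31.2%, a single worker held over 50% of the summed CPM of the 8 workers. That worker was FW24 in 8 contigs, FW11 in 1, FW25 in 6, FW28 in 5, FW47 in 3 and FW10 in 1. The median level of the 77 contigs was 3.18 CPM, and 31 of them lay under 2 CPM.

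1 contig past the FDR, PfusTSAr1.0-110957, named after its values were seen, varied widely within the conspecific group. It had 1, 1, 1 and 0 reads in FW11, FW24, FW32 and FW44, against 246, 14, 108 and 182 in FW10, FW25, FW28 and FW47. Summed over the groups it was 182.03-fold lower in allospecific workers (95% counting interval 62.0 to 885.4-fold, exact, counting error only). It was at 0 CPM in the lowest foundress and at 14.9 CPM in the highest.

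The spread within groups was close between them. The median SD of log2 CPM over tested contigs was 0.22 within the allospecific and 0.23 within the conspecific group, and 0.20 within the conspecific group without FW28.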
